A study of Homo sapiens with 6 samples.

Results

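The transcripts of 9 S100 genes and of AHNAK were followed in HK-2, an established human kidney proximal tubule line transformed with human papillomavirus. The 10 genes were taken by symbol from a list, namely S100A10, S100A11, S100A2, S100A4, S100A6, S100A13, S100A14, S100A16, S100P and AHNAK, out of 26899 genes with reads. The series held 3 libraries labelled wild type, whose descriptions read shCtrl, and 3 libraries labelled ANXA2 knockdown, whose descriptions read shANXA2. All cells were of the same line in serum-containing medium and were transfected with plasmid by lipid. Whether the wild type cells carried a control hairpin, and whether a group was 1 culture or several, is not given by the labels, so p-values measure only the spread between these libraries. Depth ranged from 24231267 to 34561675 counted reads.

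S100 proteins are small calcium-binding proteins with a pair of EF-hand motifs that usually act as dimers. They change shape when they bind calcium and then attach to target proteins, annexins among them. S100A10, also called p11, is the exception that does not need calcium. A dimer of it binds the tails of 2 annexin A2 molecules, and this complex sits at the plasma membrane. It binds plasminogen at the outer face and ion channels at the inner face. AHNAK, a giant scaffold protein of the cell cortex, is anchored there by the same complex.

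The target gene did not bear out the labels. ANXA2 reached 1658, 1461 and 1675 CPM (reads of a gene scaled to a common library size, after TMM scaling between libraries) in the libraries labelled control, replicates 1, 2 and 3, and 1538, 1561 and 1519 CPM in those labelled knockdown. Its edgeR log2 fold change was -0.05 (95% interval -0.22 to 0.12, Benjamini-Hochberg adjusted p = 0.848). All directions given for the S100 genes and AHNAK are therefore differences between the libraries labelled knockdown and labelled control, and not responses to a measured loss of ANXA2 RNA. The labelled cell type was checked with 14 markers of the tubule line, of which 9 exceeded 1 CPM on average. VIM, KRT8, KRT18, PAX8 and GGT1 were abundant, whereas ANPEP, AQP1, LRP2, CUBN and SLC34A1, which mark the differentiated proximal tubule, each had a mean below 1 CPM. Leukocyte markers summed to 2.78 to 4.98 CPM in the libraries labelled control and 3.81 to 6.6 CPM in those labelled knockdown, with CD14 and CD68 leading, while PTPRC, CD3E and FCGR3A were not among the genes with reads. Fibroblast markers summed to 29.5 to 38.0 CPM and 30.6 to 31.3 CPM, most of it LUM, and COL1A2 was not among the genes with reads. Endothelial markers summed to at most 0.214 and 0.394 CPM, and VWF and KDR were not among the genes with reads. The ranges of all 3 lists overlapped between the groups, and their part in the results was not tested.

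8 of the 10 genes lie on chromosome 1 in GRCh38, the build named in the processing notes of the submitters. The first pair is S100A10 (ENSG00000197747.8, from 151982915 to 151993859) and S100A11 (ENSG00000163191.5, from 152032506 to 152047907). The other 6 lie in a second stretch, S100A6 (ENSG00000197956.9, from 153534599 to 153536244), S100A4, S100A2, S100A16, S100A14 and S100A13 (ENSG00000189171.13, from 153618787 to 153631360), all on the minus strand. S100P lies on the plus strand of chromosome 4 from 6693878 to 6697170, and AHNAK (ENSG00000124942.13) on chromosome 11 from 62433542 to 62556235, on the minus strand. The canonical S100 transcripts in GENCODE have 2 to 4 exons and 434 to 1172 bases, whereas that of AHNAK has 18761 bases. Exons of S100A13 share 10.6% of their bases with S100A1 on the opposite strand (457 reads in all) and 24.2% with ENSG00000271853 on the same strand (46 reads in all). The sources used here do not state how strand was treated in counting, which bears on the overlap with S100A1. The overlap on the same strand stays ambiguous whatever the strand setting, so the reads of S100A13 carry both uncertainties.

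The last 100 bases before the RefSeq start site are printed for the genes that the comparison turns on, 5′ to 3′ on the coding strand (GRCh38.p14). They are S100A10, the S100 genes with the smallest p-values, and AHNAK, whose estimate was negative. The estimate of S100A2, which is not printed here, was negative too. Capitals mark 4 motifs searched on both strands, which are TATAA of the TATA box, the CCAAT box, GGGCGG of the GC box and the AP-1 motif TGANTCA. Matches can overlap, as those of the GC box do in S100A6.
S100A10, chr1:151993860-151993959: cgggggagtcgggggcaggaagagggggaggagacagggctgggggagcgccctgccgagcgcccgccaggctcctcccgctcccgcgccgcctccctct
S100A11, chr1:152037005-152037104: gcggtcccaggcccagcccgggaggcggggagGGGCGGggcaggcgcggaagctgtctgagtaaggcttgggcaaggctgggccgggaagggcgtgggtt
S100A6, chr1:153535992-153536091: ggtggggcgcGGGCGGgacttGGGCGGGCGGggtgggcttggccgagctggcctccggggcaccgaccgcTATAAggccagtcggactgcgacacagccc
S100A13, chr1:153627506-153627605: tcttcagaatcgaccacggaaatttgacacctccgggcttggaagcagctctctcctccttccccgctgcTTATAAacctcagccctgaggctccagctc
AHNAK, chr11:62545827-62545926: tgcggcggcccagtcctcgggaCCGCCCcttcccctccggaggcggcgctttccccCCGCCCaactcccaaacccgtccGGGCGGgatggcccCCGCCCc

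TATAA began 30 bases before the start of S100A6 and 29 bases before this start of S100A13, while the windows of S100A10, S100A11 and AHNAK held none. The table holds 3 starts for S100A13, of which the one with a match to these motifs is printed, and the windows of the other 2 held no match. The windows of S100A10 and AHNAK were 79% G or C. In the full 250 bases before each start, TATAA was found in 5 of the 14 promoters that the table holds for the 10 genes (S100A13, S100A14, S100A4, S100A6 and S100P), against 18.9% of all 35116 promoters in the table. The GC box was found in 6 of the 14, against 42.6% of all. The CCAAT box was found in 2 (32.0% of all) and the AP-1 motif in 1, that of S100A2 (6.57% of all). These matches describe the letters only.

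To compare levels between genes, the deposited FPKM values were used, which are scaled for gene length. 3 S100 genes dominated. S100A11, a partner of annexin A1, had 1254 to 1483 FPKM over the 6 libraries with a median of 1395. S100A6, known as calcyclin, had 802 to 1161 FPKM (median 943.8), and S100A10 had 547 to 719.8 FPKM (median 675.9). Together these 3 genes carried 89.6% to 90.7% of the summed FPKM of the 9 S100 genes in each library. The S100 genes took 0.274% to 0.344% of all counted reads.

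A middle tier followed. S100A16, a widely expressed paralogue, had 147.7 to 186.6 FPKM, S100A2, a mostly nuclear family member, 63.3 to 101.1 FPKM, and S100A13, which takes part in the unconventional release of FGF1 and IL1A, 62.4 to 79.6 FPKM. AHNAK had 12.7 to 26.3 FPKM, although its length gave it 7464 to 17828 reads per library. S100A4, which binds nonmuscle myosin, had 3.41 to 10.0 FPKM, and S100P, which binds ezrin, 0.28 to 2.04 FPKM. S100A14 ranged from 0 to 0.36 FPKM. Neighbours in this order had ranges that did not overlap, except for S100A2 with S100A13 and for S100P with S100A14. Of these, S100A2 exceeded S100A13 in 5 of the 6 libraries, and S100P exceeded S100A14 in 6 of 6.

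The length behind each FPKM value bears on the order. Counts and FPKM together imply a length of 1329 bases for S100A10, 892.6 for S100A6 and 627.6 for S100A11, if the scaling used all counted reads, against canonical transcripts of 671, 434 and 563 bases. With CPM per kilobase of canonical transcript (an alternative added after the data were seen), S100A6 moved to the first rank with 2007, ahead of S100A11 with 1543, and S100A13 moved ahead of S100A2. The other 6 ranks were the same. The order of S100A11 and S100A6, and that of S100A2 and S100A13, thus turns on the transcript length that is taken.

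**Figure D1:**
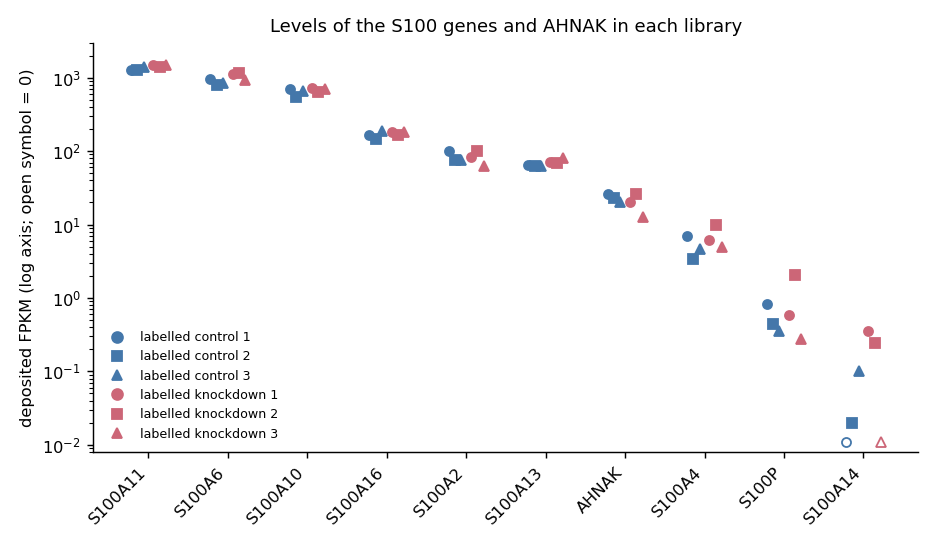
Deposited FPKM (log axis) of each S100 gene and AHNAK in the 6 libraries, ordered by mean, with symbols for replicates and colours for the labelled groups. S100A11, S100A6 and S100A10 lie above 500 FPKM in all 6 libraries, and S100A14 is at 0 in 2 of them (open symbols).

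To ask whether the annexin A2 partners differed between the labelled groups, 15299 genes passed a filter on low counts and were tested with edgeR, among them 9 of the 10 genes. S100A14 did not pass. Of the 9, 0 had an adjusted p under 0.05, as for all tested genes (0.0%), and DESeq2 and limma on FPKM also called 0 of them. At an unadjusted p under 0.05 there were 3 of the 9 (S100A6, S100A13 and S100A11), against 8.18% of all tested genes, and all 3 had positive estimates, against 3.86% for all genes in that direction. Estimates were positive for 7 of the 9 and negative for S100A2 and AHNAK, where 49.0% of all tested genes were positive. The median log2 fold change of the 9 was 0.17 and that of all tested genes -0.0065. Complete separation of the groups was found for 2 of the 9 (S100A11 and S100A13, both with higher values in the libraries labelled knockdown), against 15.6% of all tested genes in either direction and 7.94% in the higher direction.

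Length, taken as that implied by counts and FPKM, moved with these estimates. Over all tested genes the median log2 fold change was 0.045 for genes of up to 750 bases, 0.09 from 750 to 1500 bases, 0.046 from 1500 to 3000 bases, -0.021 from 3000 to 6000 bases and -0.092 above 6000 bases. The S100 genes fall in the first 3 of these classes and AHNAK in the last. With an offset for a smoothed trend on length in each library, 0 of the 9 had an unadjusted p under 0.05, against 7.63% of all tested genes. The median of the 9 was then 0.082. The smoothed trend need not follow the class medians. The estimate of S100A11, the shortest of the 9 by implied length, fell from 0.17 to 0.082, where the median of its class was 0.045. By canonical transcript S100A6 (434 bases) is shorter than S100A11 (563 bases). The 7 positive and 2 negative signs were the same with the offset.

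**Figure D2:**
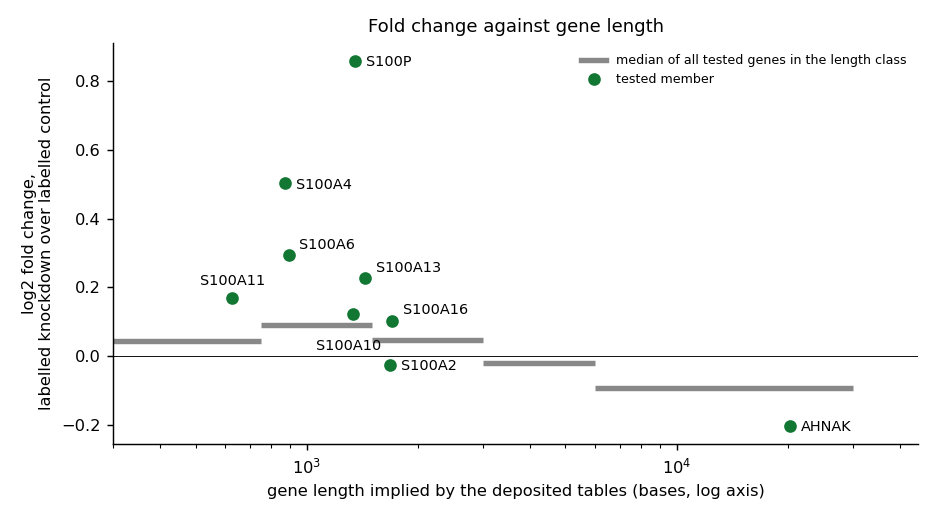
Log2 fold change (vertical axis) against implied gene length in bases (log axis) for the 9 tested genes (points), with the median of all tested genes in 5 length classes (grey bars, the outer ones drawn from 300 and to 30000 bases). The class medians run from 0.09 at 750 to 1500 bases to -0.092 above 6000 bases, and AHNAK lies in the lowest class.

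S100A10, the direct partner of annexin A2, had 942, 717.5 and 870 CPM in the libraries labelled control and 969, 859.4 and 926 CPM in those labelled knockdown. Control replicate 2 was the lowest of the 6 and the groups overlapped. The log2 fold change was 0.12 ± 0.107 (SE, adjusted p = 0.748), with a 95% interval from a change of -7.81% to one of 28.6%. Omission of control replicate 2 lowered the estimate to 0.021, that of control replicate 1 raised it to 0.21, and the length offset gave 0.053.

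S100A11 had 792.2, 790.5 and 870.4 CPM in the libraries labelled control and 942.6, 890.7 and 926 CPM in those labelled knockdown. All 3 libraries labelled knockdown lay above the 3 labelled control. The log2 fold change was 0.17 ± 0.0753 (SE), a 1.12-fold difference, with an unadjusted p of 0.0499 and an adjusted p of 0.608 by edgeR. It was 0.082 with the length offset (unadjusted p = 0.304). With the replicate number as a block in edgeR, the unadjusted p was 0.0553.

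S100A6 had 873.5, 708.3 and 764.6 CPM in the libraries labelled control and 1007, 1051 and 820.7 CPM in those labelled knockdown. Knockdown replicate 3 fell within the control range, so the groups overlapped. Its log2 fold change of 0.30 ± 0.114 (SE, 1.23-fold) had the smallest unadjusted p of the 9, 0.0289, with an adjusted p of 0.605. With the length offset it was 0.22 (unadjusted p = 0.083).

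S100A13 had 93.3, 89.9 and 89.6 CPM in the libraries labelled control and 104.4, 100.8 and 114.3 CPM in those labelled knockdown. The 3 control values were close together and all 3 knockdown values lay above them. The log2 fold change was 0.23 ± 0.0932 (SE, 1.17-fold), with an unadjusted p of 0.0364 and an adjusted p of 0.605, and with the length offset it was 0.16 (unadjusted p = 0.102). These estimates include any reads from the exons shared with S100A1 and ENSG00000271853.

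S100A16 had 283.8, 248.4 and 317.9 CPM against 311.4, 289.2 and 312.7 CPM in the libraries labelled knockdown. The groups overlapped, and the log2 fold change was 0.10 ± 0.105 (SE, adjusted p = 0.791). Omission of control replicate 2 gave 0.018, that of control replicate 3 gave 0.20, and the length offset gave 0.042. S100A2 had 168.4, 123.8 and 125.7 CPM against 138.2, 167.8 and 104.7 CPM. Its highest and its lowest library were control replicate 1 and knockdown replicate 3, and its log2 fold change was -0.024 ± 0.181 (SE, adjusted p = 0.976). That estimate turned to 0.14 without knockdown replicate 3 or control replicate 1, and was -0.19 without knockdown replicate 2.

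**Figure D3:**
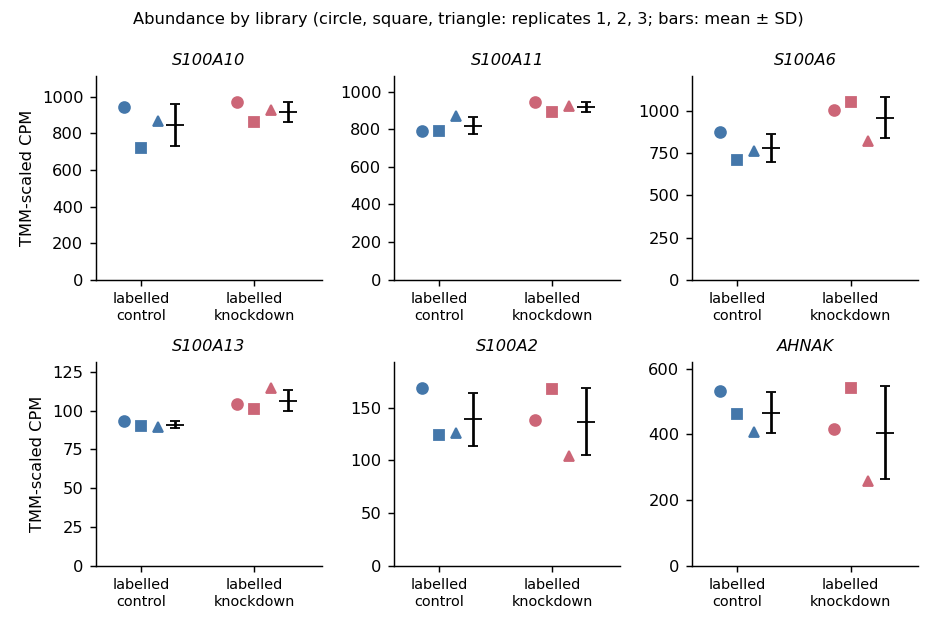
TMM-scaled CPM of 6 genes in each library (circle, square and triangle for replicates 1, 2 and 3), with mean ± SD of 3 libraries per labelled group. The groups are apart for S100A11 and S100A13 and overlap for the other 4 genes.

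The low S100 genes varied most. S100A4 had 151, 96 and 127 reads in the libraries labelled control and 186, 292 and 124 in those labelled knockdown, with a log2 fold change of 0.50 ± 0.341 (SE, adjusted p = 0.69). Knockdown replicate 2 was the highest, and without it the estimate was 0.16. Omission of control replicate 2 gave 0.28 and that of control replicate 1 gave 0.82. S100P had 28, 19 and 15 reads against 27, 92 and 11 reads. A single library, knockdown replicate 2, stood above the others, and the log2 fold change of 0.86 ± 0.716 (SE, adjusted p = 0.739) turned to -0.31 without it and was 1.31 without control replicate 1. S100A14 had 0, 1 and 4 reads against 17, 11 and 0 reads. Both groups thus held a library with no read, where a count of 0 allows up to 3 reads or 0.123 CPM in control replicate 1 and 0.104 CPM in knockdown replicate 3 (counting error only). The libraries labelled control held 5 reads in all and those labelled knockdown 28, all of the latter from replicates 1 and 2.

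AHNAK had 530.6, 461.7 and 406.5 CPM in the libraries labelled control and 417.6, 539.9 and 258.5 CPM in those labelled knockdown. Knockdown replicate 2 was the highest and knockdown replicate 3 the lowest of the 6. The log2 fold change was -0.20 ± 0.225 (SE, adjusted p = 0.809), with a 95% interval from a change of -38.9% to one of 23.6%. It was 0.04 without knockdown replicate 3, -0.46 without knockdown replicate 2 and -0.086 with the length offset. Knockdown replicate 3 was also the library in which genes above 6000 bases were lowest, with a median deviation of -0.11 on the log2 scale from the mean of the 6 libraries. That median was highest in control replicate 2, at 0.14, and was 0.017 in knockdown replicate 2, where AHNAK was highest. Whether the level of long genes bears on AHNAK was not tested.

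**Figure D4:**
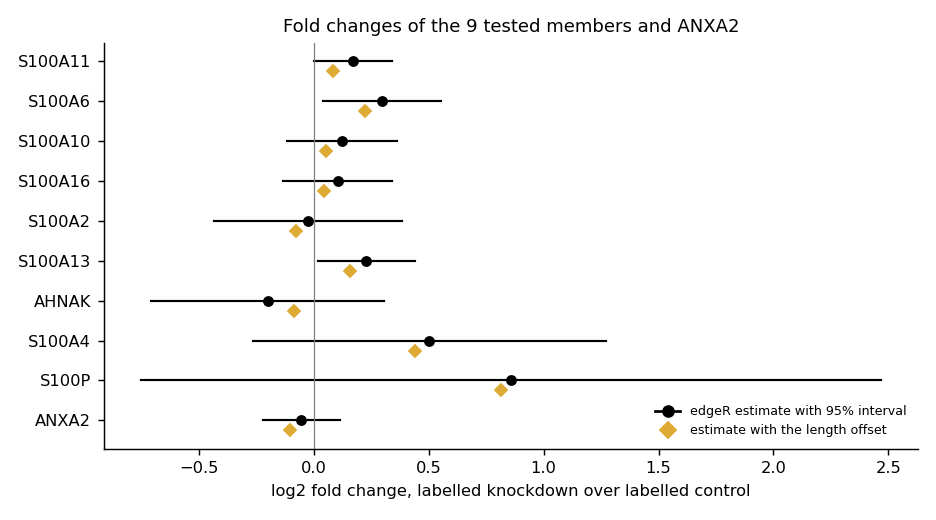
Log2 fold changes of the 9 tested genes, ordered by level, and of ANXA2 (black points, with 95% intervals as lines), with the estimate after the length offset (yellow diamonds). The intervals of S100A11, S100A6 and S100A13 lie above 0 before adjustment, and the diamonds of the S100 genes lie to the left of the points.

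Since the proteins work as complexes, levels were also compared within each library. The FPKM of S100A10 per FPKM of ANXA2 was 0.852, 0.737 and 0.779 in the libraries labelled control and 0.945, 0.825 and 0.914 in those labelled knockdown. The means were 0.789 ± 0.0582 and 0.895 ± 0.062 (SD, n = 3). The ratio was below 1 in all 6 libraries, but with canonical transcript lengths (671 and 1554 bases) it was 1.14 to 1.46, so which of the pair is the more abundant per length turns on the length taken. The groups overlapped, with an exact two-sided permutation p of 0.2. With 3 libraries against 3 this test cannot give a p below 0.1. AHNAK per S100A10 was 0.0368, 0.0421 and 0.0306 against 0.0282, 0.0411 and 0.0183 (exact permutation p = 0.4). Knockdown replicate 3 was the lowest and the groups overlapped. The log2 difference of -0.39 was -0.089 without knockdown replicate 3 (exact permutation p = 0.7) and -0.67 without knockdown replicate 2 (exact permutation p = 0.1, the smallest that 3 against 2 libraries allow).

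The summed FPKM of the 9 S100 genes was 3268, 2916 and 3226 in the libraries labelled control and 3656, 3553 and 3423 in those labelled knockdown. The groups did not overlap, at 3137 ± 192 and 3544 ± 117 (SD, n = 3), a 1.13-fold difference (exact permutation p = 0.1, at that lower limit). The adjusted p-values over the 3 comparisons were 0.3, 0.3 and 0.4 for the sum, the S100A10 ratio and the AHNAK ratio. Unlike the ratios, the sum depends on the scaling between libraries. The sum consists mostly of S100A11, S100A6 and S100A10, whose own estimates were smaller with the length offset.

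**Figure D5:**
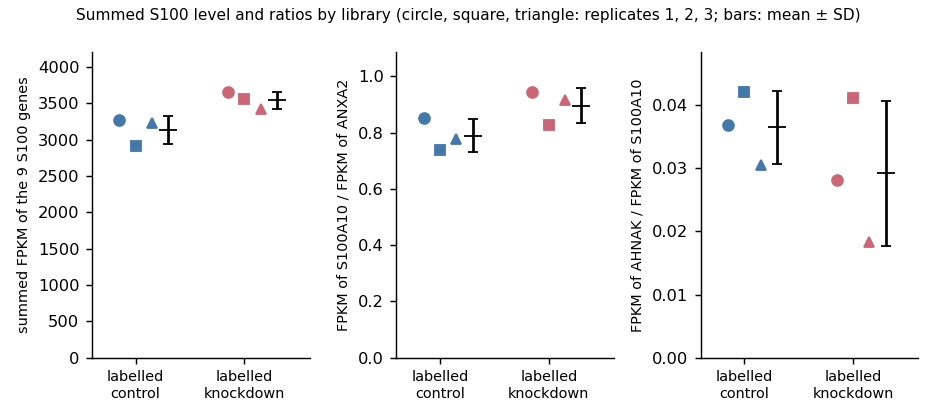
Summed FPKM of the 9 S100 genes, FPKM ratio of S100A10 to ANXA2 and FPKM ratio of AHNAK to S100A10 in each library (circle, square and triangle for replicates 1, 2 and 3), with mean ± SD of 3 libraries per labelled group. The sum is apart between the groups (2916 to 3268 against 3423 to 3656), and both ratios overlap.

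Other genes of the family and its partners were read from lists. Of 12 further S100 genes, 3 were tested and 0 passed an adjusted p of 0.05, as for all tested genes (0.0%). Without adjustment, 1 of the 3 had a p under 0.05, against 8.18% of all tested genes. S100A3, the neighbour of S100A4, was the most abundant of them with 475, 698 and 755 reads against 826, 800 and 420 reads in the libraries labelled knockdown (log2 fold change -0.046, adjusted p = 0.959). S100A1 had 84, 48 and 83 reads against 97, 69 and 76. S100A5 had 12, 17 and 40 reads against 45, 48 and 66. These reads are not scaled for depth. Its deposited FPKM were 0.927 ± 0.54 in the libraries labelled control and 2.02 ± 0.646 in those labelled knockdown (SD, n = 3). The edgeR log2 fold change was 1.12 ± 0.486 (SE), with an unadjusted p of 0.0455 and an adjusted p of 0.608. S100A7 and S100A7L2 had 1 read each. The other 7, S100A7A, S100A8, S100A9, S100A12, S100B, S100G and S100Z, were looked up and were not among the genes with reads used here.

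Of 19 binding partners and receptors of S100 proteins, 17 were tested, 0 passed an adjusted p of 0.05 and 0 had an unadjusted p under 0.05. Over all tested genes 0 passed that adjusted threshold and 8.18% had an unadjusted p under 0.05. The median log2 fold change of the 17 was -0.0098, against -0.0065 for all tested genes. Their estimates were positive for 7 and negative for 10, where 49.0% of all tested genes were positive. After ANXA2, the most abundant were BSG, a receptor for S100A9, with 339.9 ± 24.6 FPKM in the libraries labelled control and 377 ± 16.2 FPKM in those labelled knockdown (SD, n = 3), and EZR, the partner of S100P, with 236.9 ± 43.9 and 271.6 ± 27.8 FPKM. Their adjusted p-values were 0.628 and 0.686. Of 14 ligands and cargo proteins of S100A10, 8 were tested and 0 passed, also without adjustment, with a median of 0.068. At a share of 8.18% over all tested genes, a count of 0 in lists of 8 or 17 genes says little. PLAU, the urokinase that activates plasminogen, led with 272.9 ± 88.4 and 316.4 ± 71.8 FPKM (adjusted p = 0.789), ahead of the protease CTSB with 42.4 ± 3.91 and 44.3 ± 2.86 FPKM (adjusted p = 0.833) and the urokinase receptor PLAUR with 26.5 ± 10.1 and 33.4 ± 5.22 FPKM (adjusted p = 0.7).

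Of 6 relatives and partners of AHNAK, 5 were tested and 0 passed, also without adjustment. Over all tested genes 8.18% had an unadjusted p under 0.05, so a count of 0 among 5 genes says little. The median of the 5 was 0.068, against -0.0065 for all tested genes. MYOF and DYSF, ferlins that act in membrane repair, had 37.2 ± 2.59 and 9.34 ± 3.03 FPKM in the libraries labelled control and 38.6 ± 2.79 and 10.4 ± 0.452 FPKM in those labelled knockdown. PLCG1, a phospholipase that AHNAK can activate, had 8.42 ± 0.979 and 8.0 ± 0.492 FPKM. The adjusted p-values of these 3 genes were 0.856, 0.838 and 0.894.

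The genes whose pattern over the 6 libraries was most like that of S100A10 were sought among 8914 other genes with a mean of at least 10 CPM, by Pearson correlation of log2 CPM. Among the 5 highest were CXXC1 (r = 0.995), FAM210B (0.992), C22orf29 (0.988) and TMEM201 (0.987). For AHNAK they included GMPPB (r = 0.994), MON1B (0.983), MT-ND6 (0.980) and EIF4B (0.979). These are among the highest of many correlations over 6 points that share depth and labels, and they describe the pattern over these libraries only. A Pearson correlation over 6 points can rest largely on 1 extreme library.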

How the data were processed

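The authors deposited raw read counts per gene and FPKM values in separate tables with a column per library, and all 6 columns of each were used. The labels name bcl2fastq, TopHat2, edgeR and GRCh38, whereas the sources used here do not state the counting program, annotation release or strand setting. The paper at hand describes another experiment and supplied no method.

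Counts of 15299 genes that passed the filter of edgeR 4.0.16 (minimum count 10, total 15) were tested in R 4.3.3 with the quasi-likelihood test after TMM scaling, without covariates, two-sided, with Benjamini-Hochberg adjustment over all tested genes and a threshold of 0.05. CPM were taken over the tested genes times the TMM factor. Sums and ratios of the deposited FPKM were compared on the log2 scale by exact permutation. Alternatives were RLE scaling, DESeq2 1.42.0, no filter, limma 3.58.1 on log2(FPKM + 1), the replicate number as a block, a lowess offset on gene length, and omission of each library. The fits were tested on simulated data. Depth was 24231267 to 34561675 reads, and a count of 0 was read as up to 3 reads. Coordinates are those of GENCODE release 44, and promoters those of RefSeq, which held all 10 genes.

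The text names the 10 genes, ANXA2, in each list the 3 tested genes of highest FPKM and those with an unadjusted p under 0.05, all further S100 genes, and, of the 5 genes most like S100A10 and the 5 most like AHNAK, those that can be given. Some items are not reported here. The genes and lists were chosen with earlier results of these data known. Protein sequences were not used here.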

Additional observations from a re-analysis of the deposited data

How the results depend on the processing

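Of the 130 estimates for the 9 tested genes and ANXA2 under alternatives, 126 kept their sign and stayed outside the adjusted threshold, and 4 changed sign, all on omission of 1 library. Omission gave -0.193 (without knockdown replicate 2) to 0.138 (without knockdown replicate 3) for S100A2, which was also 0.136 without control replicate 1. It gave -0.305 (without knockdown replicate 2) to 1.31 (without control replicate 1) for S100P, and -0.46 (without knockdown replicate 2) to 0.0397 (without knockdown replicate 3) for AHNAK. The adjusted p of the 9 genes spanned 0.208 to 0.997. The count of the 9 past the adjusted threshold was 0 under each alternative. Over all genes the count was 0 in edgeR, 165 without the filter and 32 with DESeq2, and 0 to 4 on omission of 1 library, the 4 being without knockdown replicate 2. The cause was not tested.

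The count of these genes at an unadjusted p under 0.05, compared across alternatives only after the data were seen, was 3 (8.18% of all tested genes). It was 3 with RLE scaling (8.22% of all), the same genes. It was 2 with limma on FPKM (S100A13 and S100A6, 8.43%) and 1 without the filter (S100A6, 7.73%). It was 1 with DESeq2 (S100A6, 4.78%, also without that filter) and 0 with the length offset (7.63%). On omission of 1 library it was 0 to 3 (3.21% to 12.4%). The omissions with 0 were those of control replicate 2 (4.71% of all) and knockdown replicate 1 (3.21%). That of control replicate 3 gave 1, S100A11 (8.87%). Omission of control replicate 1 gave 3 (12.4%), namely S100A13, S100A4 and S100A6. That of knockdown replicate 2 gave 2 (5.89%), S100A13 and AHNAK, the latter with a negative estimate. That of knockdown replicate 3 gave 2 (8.23%), S100A6 and S100A14, which passed the filter in that fit. The share of all genes thus moved with the setting too. Deviations of same-numbered libraries from their group means correlated at -0.0616, 0.118 and -0.203, and 1 of 6 libraries correlated best with its own number. With 3 libraries per group, these values cannot decide whether same-numbered libraries shared a batch. The fit with the replicate block gave 1 such gene (S100A6, against 7.03% of all genes), and 0 with the length offset added (6.27%). The replicate block called 0 genes past the adjusted threshold. The sum and both ratios, recomputed on CPM, with the block and on omission of each library, kept their direction. The AHNAK to S100A10 ratio moved most, from a log2 difference of -0.674 without knockdown replicate 2 to -0.0886 without knockdown replicate 3, against -0.388. The length offset was not applied to them. The library of lowest depth held 24231267 reads, and S100A1, S100A4, S100A5, S100P and S100A14 held at most 292 reads in any library, so counting error weighs most on them.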
